A study of Homo sapiens with 3 samples.

Results

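The 300 cells described here were chosen by having the highest share of RNA in LCN2, CXCL1, CYP17A1, SFTPD and ISM2, out of 8913 cells of a pooled mesothelioma cell line experiment. The other 8613 cells are the comparison throughout. The pool held 4 hashtagged samples: CL3 cells with GNE7883, CL3 cells with DMSO, parental NCI-H226 cells with GNE7883 and parental NCI-H226 cells with DMSO. NCI-H226 is a human mesothelioma line that is null for NF2, a tumour suppressor of the Hippo pathway, and CL3 is 1 clone of it grown resistant to GNE7883, an inhibitor of the TEAD transcription factors. RNA and open chromatin were read from the same cells. The matrix names no hashtag, so the line and treatment of a cell were not known, all cells form 1 sample without replicates, and no test between conditions was possible.

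LCN2 encodes lipocalin 2, an iron-carrier-binding defence protein, CXCL1 a neutrophil chemokine, CYP17A1 a steroid hydroxylase, SFTPD the lung collectin surfactant protein D and ISM2 a secreted protein. Epithelial and mesothelial cells make lipocalin 2, serum amyloid A, complement components and chemokines when NF-kB, STAT3 or C/EBP factors are active, as in infection or wounding. NF-kB dimers are held in the cytoplasm by IkB proteins and bind kappaB sites once released, and several of their targets, including IkB alpha, feed back on the pathway.

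The members held 991 unique molecular identifiers (UMIs, counted RNA molecules) of the 5 genes, and the other cells held 1609. The share per member ran between 0.105% and 0.668% of a cell's UMIs, and 150 of the 300 members had exactly 2 such UMIs. The last 10 cells inside the limit had shares of 0.1047% to 0.1091%, and the first 10 outside had 0.1% to 0.1045%. A total of 170 cells, 28 of them members, lay within 10% of the limit. One of the 5 genes was seen in 114 members, 2 in 151, 3 in 32, 4 in 3 and all 5 in 0. No gap in the share set the members apart from the cells next in rank. SFTPD was seen in 204 members, ISM2 in 118, LCN2 in 87, CYP17A1 in 75 and CXCL1 in 40. The 5 genes made up 1756 counts per 1000000 UMIs (CPM) in the members and 100 CPM in the other cells, values that the choice itself set. RNA in barcodes with 100 to 400 UMIs and at most 100 peak counts, taken as free RNA, held 139 CPM.

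Open chromatin within 1 kb of the CYP17A1 start, which had no part in the choice, gave 22.8 counts per 1000000 peak counts in the members and 11.3 in the other cells, a ratio of 2.01 (95% interval 1.19 to 3.21, where 2.08% of all gene starts were higher). It was 0.853 when 300 cells were chosen among those with at most 10% mitochondrial UMIs. At the starts of LCN2, SFTPD and ISM2 the ratios were 1.49, 1.46 and 1.70, with intervals that included 1, and at that of CXCL1 there were 4 counts in the members and 156 in the other cells (0.720), too few to compare. Within 50 kb no ratio passed, at 1.14 for CYP17A1, 1.26 for SFTPD, 1.2 for ISM2, 0.946 for LCN2 and 0.805 for CXCL1. The 5 genes were left out of all totals and results that follow.

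Median depth was 1656 UMIs from 928 genes and 3931 peak counts in the members, against 1519 UMIs from 911 genes and 4035 peak counts in the other cells. Mitochondrial genes gave a median of 14.9% of UMIs in the members and 13.8% in the other cells. Median Scrublet doublet scores were 0.104 in the members and 0.139 in the other cells. Marker lists of the lineages that the pool could hold were read in both groups. The 18 mesothelial markers summed to 10744 CPM in the members and 10675 CPM in the other cells. Of 15 compared genes 1 was higher, LRRN4, and 0 lower, beside 2.54% higher and 6.26% lower over all genes. Of the alveolar type 2 markers, SFTPA1, SFTPA2, SFTPB, SFTPC and NKX2-1 had no UMI in the members, and 1 of 4 compared genes, the protease gene CTSH, was higher (81.6 CPM in members, 35.9 CPM in other cells). Club and goblet cell markers summed to 12.4 CPM in the members and 6.43 CPM in the other cells, with 11 of 14 genes at 0 in the members. Adrenal and gonadal steroid cell markers summed to 21.3 CPM in the members and 23 CPM in the other cells, with 9 of 12 at 0 in the members. Neutrophil and myeloid markers summed to 19.5 CPM in the members and 13.1 CPM in the other cells, and the 10 lymphoid markers had no UMI in the members. Endothelial markers summed to 46.1 CPM in the members and 28.0 CPM in the other cells (1.65-fold, 1.07 to 2.45), with 6 of 10 at 0 in the members. Sums were 1908 CPM in the members and 1942 CPM in the other cells for squamous and basal markers. Fibroblast and smooth muscle markers summed to 163 CPM in the members and 161 CPM in the other cells.

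Across the transcriptome, 262 of 10301 compared genes (2.54%) were higher in the members and 645 (6.26%) were lower. Genes entered the comparison with 100 UMIs or more in all cells together, and higher or lower means at least 1.5-fold with a 95% interval that excluded 1. The intervals are exact conditional binomial ones, cover counting error only and leave up to 2.5% of unchanged genes outside on each side. The 1.5-fold limit can lower that share further, by an amount that was not measured. The share of higher genes by itself is close to 2.5%, so the description uses named genes and lists. Named genes are the extremes of this same comparison, and the lists were chosen with earlier results of these data known. Neither is independent evidence. The median gene had a log2 ratio of -0.12. Scaling that set this median to 0 gave 452 higher and 356 lower genes, so that 55.9% of calls were higher, against 28.9% with plain totals.

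The 3 named genes with the highest lower interval bounds were PI3, SAA1 and SAA2. PI3, which encodes the elastase inhibitor elafin, had 341 UMIs or 605 CPM in the members, against 1891 UMIs or 118 CPM in the other cells, a 5.13-fold ratio (4.56 to 5.76). SAA1, which encodes the acute-phase protein serum amyloid A1, had 1998 CPM in the members and 414 CPM in the other cells (4.82-fold, 4.53 to 5.14). SAA2 had 470 CPM in the members and 108 CPM in the other cells (4.35-fold, 3.81 to 4.96). SAA1 and SAA2 are near-identical paralogs whose reads may have been split or dropped in counting, so their separate values are uncertain. These genes were unevenly spread: the 30 members with most of each held 79.8% of the members' PI3 UMIs, 71.4% of those of SAA1 and 70.2% of those of SAA2. PI3 and SAA1 were 2.88-fold and 2.57-fold higher when the 300 cells were chosen without LCN2. CFB, the complement protease factor B, was spread more evenly, with 40.0% of its UMIs in 30 members, and had 932 CPM in the members and 340 CPM in the other cells (2.74-fold, 2.50 to 3.00).

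**Figure D1:**
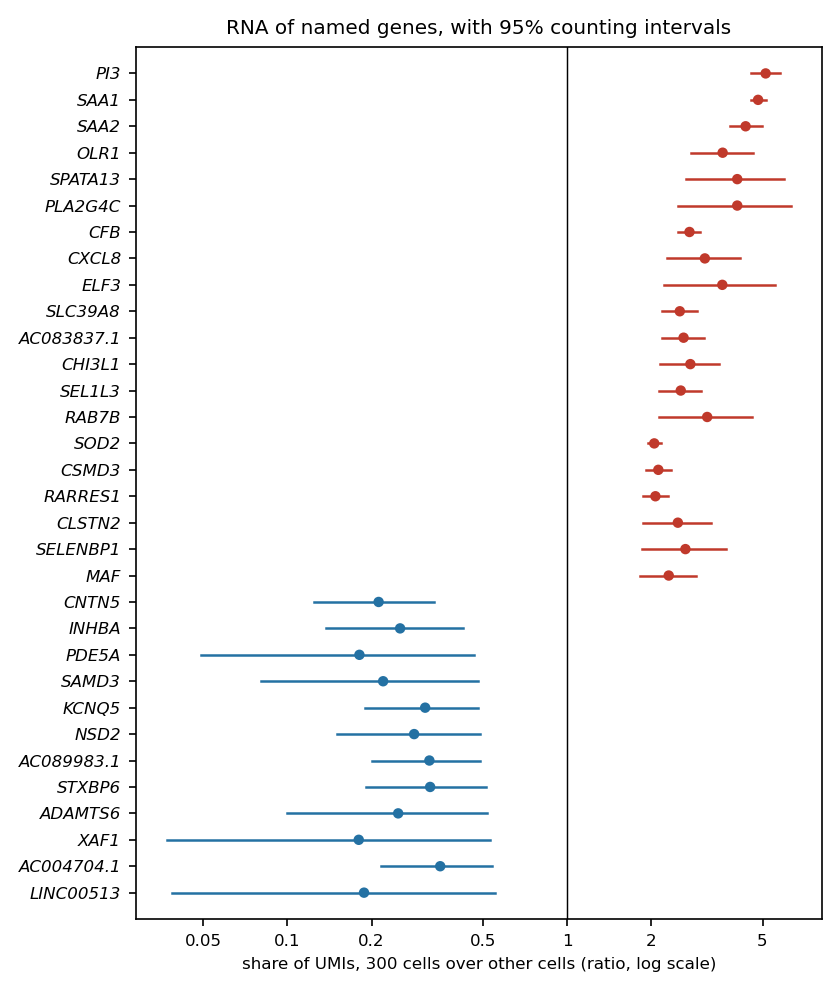
Ratio of the UMI share in the 300 cells to that in the other cells (log axis) for the named higher genes (red) and lower genes (blue), with 95% counting intervals as lines. PI3, SAA1 and SAA2 stand at 5.13, 4.82 and 4.35, and CNTN5 and INHBA at 0.212 and 0.253; LINC01111, ASIC2 and KIF3C, with no UMI in the 300 cells, are not drawn.

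Of the 12 compared acute-phase and secreted defence genes, 10 were higher in the members and 0 lower, beside 2.54% higher over all genes. Their median log2 ratio was 1.18, or 1.31 with the median gene set to 0, and 0.21 when 300 cells were chosen among those with at most 10% mitochondrial UMIs. Those 300 cells included 48 with no UMI of the genes used for the choice and shared 38 with the members. An alternative added after seeing the data kept the members' share of cells under that limit. It left 54 cells and gave a median of 0.89. Per cell, the list's genes made up 0.0674% to 5.56% of a member's UMIs with a median of 0.709%, against 0% to 7.35% with a median of 0.403% in the other cells. The ranges overlapped almost wholly and the members' centre was higher. Complement genes were among them: C3, the central component, had 674 CPM in the members and 363 CPM in the other cells (1.86-fold, 1.67 to 2.06), and the classical pathway proteases C1R and C1S were each 1.88-fold higher. CHI3L1, a secreted chitinase-like glycoprotein, had 135 CPM in the members and 48.9 CPM in the other cells (2.76-fold, 2.15 to 3.49). SLPI, the secretory leukocyte protease inhibitor and the most abundant gene of the list, had 5058 CPM in the members and 2796 CPM in the other cells (1.81-fold, 1.74 to 1.88). Free RNA held 5819 CPM of SLPI and 845 CPM of SAA1, so part of the UMIs of such genes in any cell can come from free RNA, and that part was not tested. PTX3, a pentraxin, did not pass, with 3.55 CPM in the members and 7.43 CPM in the other cells.

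NF-kB and chemokine genes were also higher in the members: 11 of 24 compared genes were higher and 1 was lower, beside 2.54% and 6.26% over all genes. C3, already counted in the acute-phase list, is in this list too and is 1 of the 11. The list's median log2 ratio was 0.60, or 0.72 with the median gene set to 0. Under that 10% limit it was 0.14 for the 300 cells chosen and 0.54 for the 54 cells at the members' share. The list's sum was 4428 CPM in the members and 2470 CPM in the other cells. Among the chemokines, CXCL8, the neutrophil attractant interleukin 8, had 51 UMIs or 90.5 CPM in the members, against 467 UMIs or 29.1 CPM in the other cells (3.11-fold, 2.28 to 4.15). CCL2, a monocyte attractant, was 2.20-fold higher (1.66 to 2.86) and CCL20, the ligand of CCR6, 2.17-fold (1.37 to 3.28). CCL5 was the exception, with 19.5 CPM in the members and 49.4 CPM in the other cells (2.53-fold lower). Among the pathway's own parts, the IkB family genes NFKBIZ and NFKBIA were 2.13-fold (1.44 to 3.05) and 1.55-fold (1.24 to 1.92) higher. The subunit gene RELB was 1.72-fold higher (1.16 to 2.47). The subunit genes NFKB1, NFKB2 and REL did not pass, at ratios of 1.31, 1.49 and 1.47. SOD2, the mitochondrial superoxide dismutase and the list's most abundant gene, had 2279 CPM in the members and 1111 CPM in the other cells (2.05-fold, 1.94 to 2.17). The survival gene BIRC3 was 1.91-fold higher (1.29 to 2.73), the adhesion gene ICAM1 1.70-fold (1.39 to 2.06) and TNFAIP2, named for its induction by TNF, 1.60-fold (1.18 to 2.13).

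The promoters of 8 of these higher NF-kB list genes were in the RefSeq table, which gives 250 bases before and 50 after each gene start. A kappaB match, GGNNTTTCC on either strand, was in 7 of the 8 and in 17 of the 28 promoters of the whole list (60.7%), against 6.26% of all 27305 promoters. The list was made of known NF-kB targets, so the share describes the list and not the members. Over all genes, a match was in 20 of the 196 promoters of genes higher in members (10.2%) and in 6.93% of those of all compared genes. The 196 include the list's 8, which held 7 of the 20 matches, so this share is not separate from the list. Shown are 4 of these 7 promoters, 2 of chemokines, 1 of an IkB family gene and 1 of an adhesion gene, with the kappaB match in capitals. In GRCh38.p14 they lie at chr4:73740319-73740618 (+ strand), chr2:227813592-227813891 (+ strand), chr3:101827740-101828039 (+ strand) and chr19:10270870-10271169 (+ strand).
CXCL8: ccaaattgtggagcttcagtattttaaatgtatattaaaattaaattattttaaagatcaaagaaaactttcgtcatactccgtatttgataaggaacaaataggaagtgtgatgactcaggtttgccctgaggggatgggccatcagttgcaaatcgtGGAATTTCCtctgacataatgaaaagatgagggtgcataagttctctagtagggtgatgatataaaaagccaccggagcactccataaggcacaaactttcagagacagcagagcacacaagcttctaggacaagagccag
CCL20: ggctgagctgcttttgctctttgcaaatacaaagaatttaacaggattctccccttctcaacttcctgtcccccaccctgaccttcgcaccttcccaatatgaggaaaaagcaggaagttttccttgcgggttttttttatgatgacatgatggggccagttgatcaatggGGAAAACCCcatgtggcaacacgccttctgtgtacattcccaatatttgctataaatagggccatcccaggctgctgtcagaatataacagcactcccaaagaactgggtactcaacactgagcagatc
NFKBIZ: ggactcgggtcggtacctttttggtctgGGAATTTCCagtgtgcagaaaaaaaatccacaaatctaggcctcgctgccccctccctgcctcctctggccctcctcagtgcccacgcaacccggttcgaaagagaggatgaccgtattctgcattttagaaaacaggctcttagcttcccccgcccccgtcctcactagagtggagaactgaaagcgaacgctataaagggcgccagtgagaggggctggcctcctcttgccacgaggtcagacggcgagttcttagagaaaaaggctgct
ICAM1: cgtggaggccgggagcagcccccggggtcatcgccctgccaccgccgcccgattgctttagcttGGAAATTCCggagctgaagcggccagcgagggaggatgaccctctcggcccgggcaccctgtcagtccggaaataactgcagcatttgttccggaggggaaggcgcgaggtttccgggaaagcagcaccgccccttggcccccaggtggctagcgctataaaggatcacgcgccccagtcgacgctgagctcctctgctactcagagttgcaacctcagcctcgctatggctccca
The match has the same letters, GGAATTTCC, in CXCL8 and NFKBIZ, and ICAM1 holds its reverse complement. Open chromatin within 1 kb of the start had ratios of 1.05 (0.518 to 1.91) for CXCL8 and 1.16 (0.772 to 1.68) for ICAM1, with intervals that included 1. CCL20 had too few counts there to compare, 2 in the members and 93 in the other cells, and the NFKBIZ start was not analysed here.

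A C/EBP match, TTGNNNAA on either strand, was in 14 of 15 promoters of the acute-phase list (93.3%), against 34.2% of all promoters and 22.5% of those of compared genes. Over all genes, a match was in 20.9% of the 196 promoters of genes higher in members, so here too the share describes the list. Median GC content was 55.3% in the list, 58.3% in all promoters and 65.7% in those of compared genes, and its part in the difference was not tested. The 4 list genes that were higher in members and had a promoter in the table, C1R, CFB, CHI3L1 and SAA4, all held a match. SAA4, a serum amyloid A gene with 14 UMIs in the members and 125 in the other cells (3.18-fold, 1.69 to 5.55), held 5. It is shown with these in capitals, at chr11:18236753-18237052 (- strand) in GRCh38.p14.
SAA4: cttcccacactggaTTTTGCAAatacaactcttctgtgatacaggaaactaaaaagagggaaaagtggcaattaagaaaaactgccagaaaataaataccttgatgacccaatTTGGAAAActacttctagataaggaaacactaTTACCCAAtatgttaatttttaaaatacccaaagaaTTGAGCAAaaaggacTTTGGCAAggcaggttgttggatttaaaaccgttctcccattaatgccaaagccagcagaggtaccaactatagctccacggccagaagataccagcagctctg

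Of 14 compared IL-6 and STAT3 pathway genes, 2 were higher and 0 lower, beside 2.54% higher over all genes (median log2 ratio 0.28). The 2 were SOCS3, the feedback inhibitor of the pathway, at 30.2 CPM in the members and 14.4 CPM in the other cells, and the kinase gene PIM1 at 35.5 CPM in the members and 21 CPM in the other cells. The remaining named higher genes came from varied groups. OLR1, a scavenger receptor for oxidised lipoprotein, had 126 CPM in the members and 35.0 CPM in the other cells (3.6-fold, 2.77 to 4.61). ELF3, an epithelial ETS transcription factor, was 3.59-fold higher (2.22 to 5.56) on 23 member UMIs, and the transcription factor gene MAF 2.31-fold (1.83 to 2.88). SLC39A8, an importer of zinc and manganese, had 369 CPM in the members and 146 CPM in the other cells (2.53-fold, 2.19 to 2.92). PLA2G4C, a phospholipase A2, and SPATA13 were each 4.06-fold higher, on 23 and 30 member UMIs. SELENBP1 was 2.65-fold higher, but 0.98-fold when the cells were chosen without SFTPD. Ferritin heavy chain, FTH1, which stores iron, had 7498 CPM in the members and 4531 CPM in the other cells (1.65-fold, 1.60 to 1.71). Of 25 compared hypoxia and glycolysis genes, only HK2, a hexokinase, and SLC16A3, a lactate exporter, were higher, at 2.00-fold and 1.64-fold.

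Genes of the cell cycle were lower in the members. Of 49 compared G2/M phase genes, 20 were lower and 0 higher, beside 6.26% lower over all genes, and the median log2 ratio was -0.62. TOP2A, a topoisomerase of dividing cells, had 136 UMIs or 241 CPM in the members, against 6720 UMIs or 419 CPM in the other cells (1.74-fold lower). ANLN, which acts in cytokinesis, was 2.02-fold lower, CENPF, a kinetochore gene, 2.12-fold lower and the mitotic kinase gene CDK1 2.08-fold lower. Of 33 compared S phase genes, 8 were lower and 0 higher (median log2 ratio -0.61). UNG, a DNA glycosylase, had 1 UMI in the members and 233 in the other cells, and RFC4, a clamp loader subunit, had 3 UMIs in the members and 304 in the other cells. With the median gene set to 0, these list medians were -0.50 for G2/M and -0.49 for S phase. G2/M genes summed to 2000 CPM in the members, 3223 CPM in the other cells and 3166 CPM in free RNA. CDKN2B, a CDK4 and CDK6 inhibitor, was the 1 higher gene of 18 CDK inhibitor and quiescence genes, beside 2.54% over all genes, at 1.79-fold (1.2 to 2.59).

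Interferon-induced genes were lower as well, with 13 of 32 compared genes lower, beside 6.26% over all genes, 0 higher and a median log2 ratio of -0.59, or -0.46 with the median gene set to 0. XAF1, an interferon-induced partner of the apoptosis inhibitor XIAP, had 3 UMIs in the members and 473 in the other cells (5.54-fold lower). RSAD2, the antiviral enzyme viperin, had 14.2 CPM in the members and 46.4 CPM in the other cells, and MX2, an antiviral GTPase, 8.87 CPM in the members and 27.2 CPM in the other cells. ISG15, a ubiquitin-like protein, had 65.7 CPM in the members and 105 CPM in the other cells. The cell cycle medians differed with how many cells were chosen under a limit on mitochondrial UMIs. With at most 10% of UMIs mitochondrial, 300 cells were again chosen, out of 1592. Of the 300 chosen, 48 had no UMI of the genes used for the choice, and 38 were among the main members. The medians were 0.16 for G2/M, 0.02 for S phase and -0.24 for interferon genes, so that both cell cycle medians turned sign. An alternative added after seeing the data used the same limit, kept the members' share of cells and left 54 members. Its medians were -0.82 for G2/M, -0.18 for S phase and -0.02 for interferon genes. With all other cells weighted to the members' depth and mitochondrial share, the medians were -0.60, -0.59 and -0.55. The part of the limit itself was not tested. Antigen presentation genes did not follow: 0 of 12 compared genes were higher or lower, and the median log2 ratio was 0.27. B2M, the shared light chain of class I molecules, had 1935 CPM in the members and 1421 CPM in the other cells (1.36-fold, 1.28 to 1.45).

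**Figure D2:**
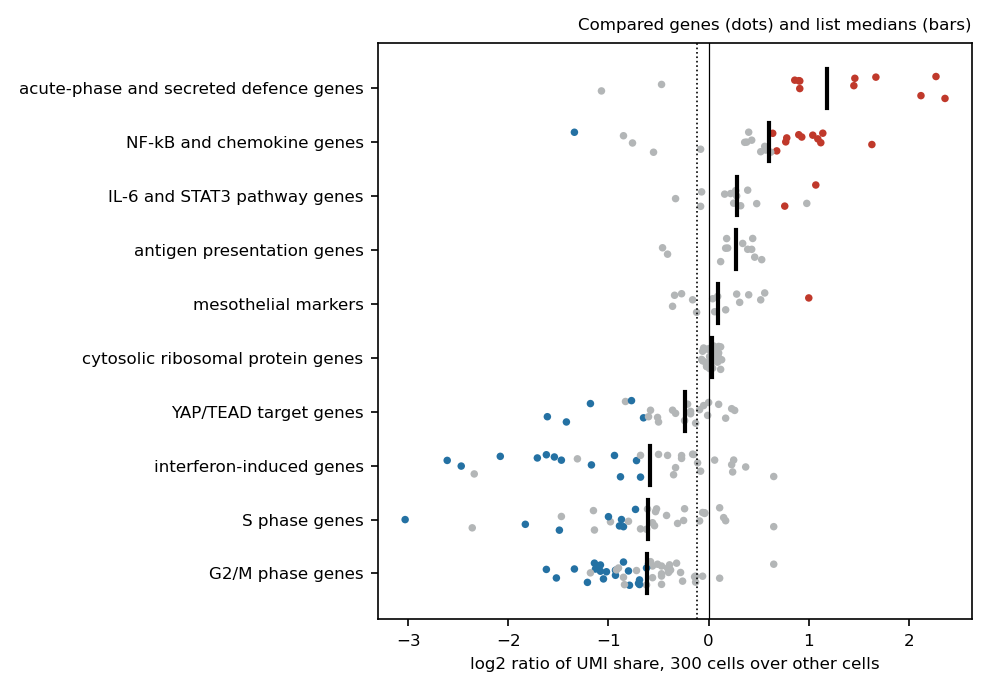
Log2 ratio of the UMI share, 300 cells over other cells, for each compared gene with a UMI in the 300 cells (dots; red higher, blue lower, grey neither) and list medians (black bars), with the median of all compared genes dotted at -0.12. Acute-phase and NF-kB lists lie to the right at medians of 1.18 and 0.60, and the S phase, G2/M and interferon lists to the left at -0.61, -0.62 and -0.59.

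The drug of the study acts on TEAD factors, which pair with YAP. Of 25 compared YAP and TEAD targets 0 were higher and 5 lower (20%), beside 6.26% lower over all genes, with a median log2 ratio of -0.24 or -0.12 with the median gene set to 0, and the list summed to 6733 CPM in the members and 7601 CPM in the other cells. The 5 lower genes were MYOF (328 CPM in members, 515 CPM in other cells), GADD45A, F3, NT5E and FJX1. CCN1 and CCN2, much used readouts of YAP activity, had ratios of 0.913 (0.770 to 1.08) and 0.964 (0.411 to 1.93). Of 10 compared MAPK output genes, PHLDA1 alone was lower (1.78-fold) and 0 were higher. ERBB3, an EGFR family receptor gene, was 1.90-fold lower, and was the 1 of 7 compared genes of its list that passed. Of the Hippo pathway genes, the kinase genes STK4 and LATS1 and the cadherin gene FAT4 were lower, 3 of 17, beside 6.26% over all genes. The 8 compared genes of steroid and vitamin D metabolism gave 0 higher and 0 lower.

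Single genes that were lowest in the members came mostly from no list. CNTN5, a neuronal adhesion gene, had 18 UMIs or 31.9 CPM in the members, against 2420 UMIs or 151 CPM in the other cells (4.73-fold lower). INHBA, the subunit of activin A, had 14 UMIs or 24.8 CPM in the members, against 1574 UMIs or 98.2 CPM in the other cells (3.95-fold lower), but its ratio was 1.66 when 300 cells were chosen among those with at most 10% mitochondrial UMIs. PDE5A, a cyclic GMP phosphodiesterase, was 5.53-fold lower on 4 member UMIs, KCNQ5, a potassium channel gene, 3.21-fold lower and NSD2, a histone methyltransferase gene, 3.52-fold lower. The non-coding LINC01111 had 0 UMIs in the members and 281 in the other cells, at least 3.29-fold lower when the members are set to 3 UMIs. Of 13 genes that had marked other chromatin clusters of these cells in earlier work on the same data, 8 were lower and 1, CLSTN2, was higher. Over all genes 6.26% were lower and 2.54% higher. The list came from the same data, so it is no independent evidence. HMGA2, a chromatin architecture gene of that list, had 67.4 CPM in the members and 166 CPM in the other cells (2.47-fold lower).

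Levels in the other cells were also read by their rank in the 5 genes. Acute-phase genes summed to 12970 CPM in ranks 1 to 100, 10170 in ranks 101 to 200 and 9131 in ranks 201 to 300, against 7610 in ranks 301 to 600, 6867 in ranks 601 to 1200, 5808 in lower ranks and 4225 in the 7218 cells with no UMI of the 5 genes. NF-kB genes summed to 4625, 4423 and 4263 CPM in the 3 bands of members, against 3259 in ranks 301 to 600, 3402 in ranks 601 to 1200, 2944 in lower ranks and 2322 in cells with no UMI. G2/M genes ran the other way, with 1656, 2145 and 2183 CPM in the members' bands, against 2852, 2702 and 3063 in the next 3 bands and 3292 in cells with no UMI. Acute-phase genes were thus lower in each band than in the one before, while NF-kB and G2/M genes did not follow the rank between ranks 301 and 1200. How many cells of the lower bands hold such UMIs from free RNA was not tested. Depth also differed between bands. Ranks 301 to 600 held 370 UMIs of the 5 genes in 300 cells. Ranks 601 to 1200 held 714 in 600 cells, and lower ranks 525 in 495. With so few per cell, rank in these bands depends much on a cell's total UMIs. Median totals were 1086, 1465 and 2536 UMIs in these 3 bands and 1496 in cells with no UMI of the 5 genes. The part of depth in the steps between bands was not tested.

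**Figure D3:**
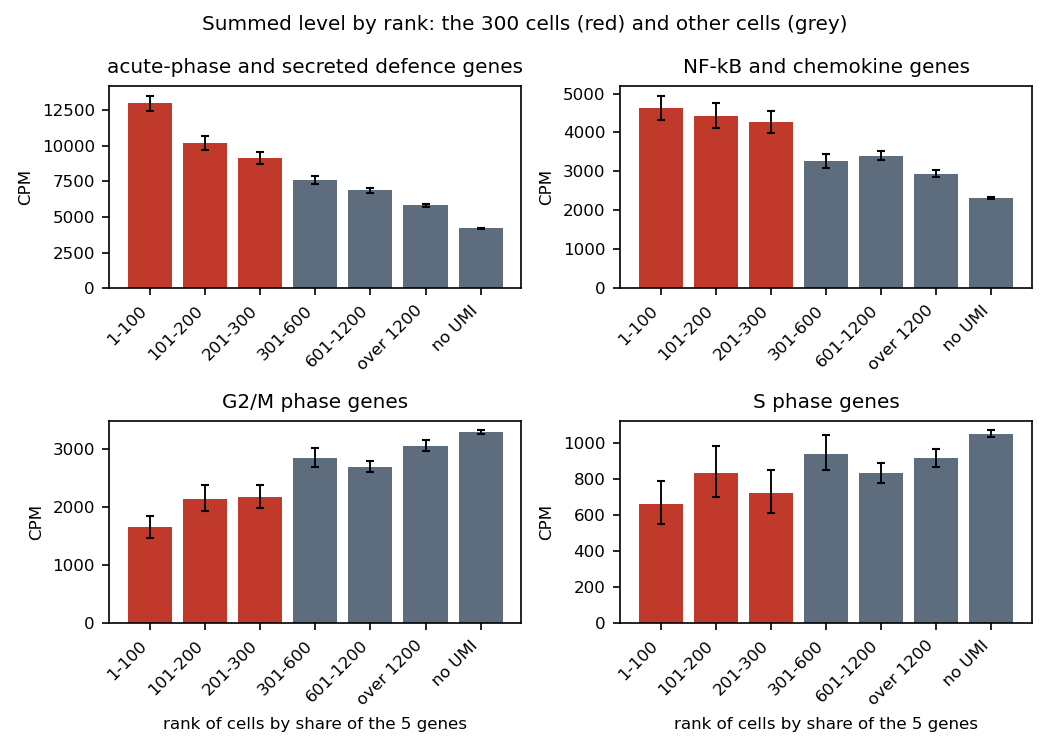
Summed CPM of 4 gene lists in bands of cells ranked by their share of the 5 genes (red, ranks 1 to 300; grey, other cells), with 95% counting intervals. Acute-phase genes step down over the bands, with 12970 CPM in the first and 4225 CPM in the last, and G2/M genes are at 1656 CPM in ranks 1 to 100 and 3292 CPM in cells with no UMI of the 5 genes. The bands also differ in depth.

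Members differed among themselves by which of the 5 genes they held. In the 104 members with a UMI of LCN2 or CXCL1, acute-phase genes summed to 15914 CPM, against 7682 CPM in the 196 members with neither. This split was chosen after its values were seen. SAA1 had 4391 CPM in the first set and 621 CPM in the second, PI3 had 1292 CPM in the first and 210 CPM in the second, and CXCL8 had 199 CPM in the first and 28.0 CPM in the second. CXCL8 in members without LCN2 or CXCL1 was close to its 29.1 CPM in the other cells. CFB differed little, at 1006 CPM in the first set and 889 CPM in the second, and SOD2 had 2715 CPM in the first and 2027 CPM in the second. Both sets stood above the other cells in CFB and SOD2, at 340 and 1111 CPM. G2/M genes were low in both, at 1856 CPM in the first and 2083 CPM in the second. LCN2 and CXCL1 had part in the choice of members, so the split is a description.

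Chromatin accessibility had no part in the choice of members. Each cell was placed by its open chromatin peaks, and its 15 nearest neighbours were found. Of the members' neighbours, 17.5% were members, against 3.77% of the other cells' neighbours and 3.36% if neighbours were drawn from all cells alike. At least 3 member neighbours were found for 129 members (43.0%) and 565 other cells (6.56%). None were found for 90 members (30.0%) and 6124 other cells (71.1%). Members thus had more member neighbours than the other cells had, and the ranges overlapped. Depth moved with this: in cells of low, middle and high peak depth, in sets of like size, the member share of members' neighbours was 11.6%, 14.7% and 26.3%, against 3.51%, 3.90% and 3.90% for the other cells. The members' excess over the overall share was 5.21-fold. Among the 1592 cells with at most 10% mitochondrial UMIs it was 1.08-fold with 300 members and 0.834-fold with 54. Neighbours were not found again there, and links to cells outside the limit were dropped. With 54 members the remaining links were few, and counting error alone gave 0.229 to 2.09. Neighbour relations are often mutual and all cells come from 1 pool, so no other interval is given for these shares. Cells chosen without SFTPD or without ISM2 had excesses of 2.64-fold and 3.38-fold, and 600 members had 2.42-fold.

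**Figure D4:**
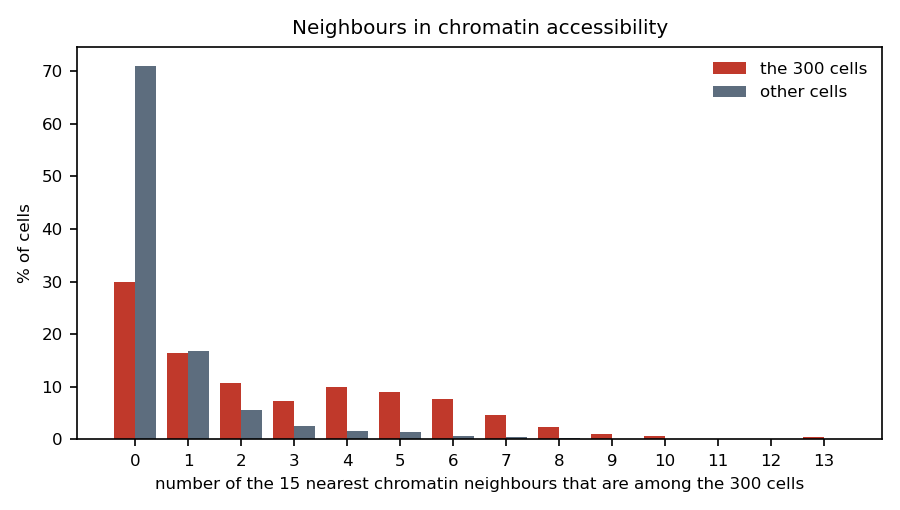
Share of cells (%) by how many of their 15 nearest chromatin neighbours are among the 300 cells, for the 300 cells (red) and the other cells (grey). None were found for 30.0% of the 300 cells and 71.1% of the other cells, and 1 cell reached 13.

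Where members lay in chromatin space went with their RNA. In the 129 members with 3 or more member neighbours, acute-phase genes summed to 12614 CPM, against 9831 CPM in the 81 members with 1 or 2 and 7549 CPM in the 90 with none. G2/M genes summed to 1440, 2750 and 2402 CPM in those sets. HMGA2 had 24.5, 71.2 and 153 CPM and CNTN5 3.5, 42.7 and 80.3 CPM, in the same order, against 166 and 151 CPM in the other cells. The 3 sets also differed in depth, with medians of 5835, 3362 and 2816 peak counts and 2100, 1488 and 1398 UMIs, whose part in these values was not tested. The 565 other cells with 3 or more member neighbours were like the members in direction, with 7443 CPM of acute-phase genes, 1819 CPM of G2/M genes, 46.2 CPM of HMGA2 and 2078 CPM of SOD2. The 6124 other cells with none had 4100 CPM of acute-phase genes, 3423 CPM of G2/M genes, 192 CPM of HMGA2 and 983 CPM of SOD2.

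**Figure D5:**
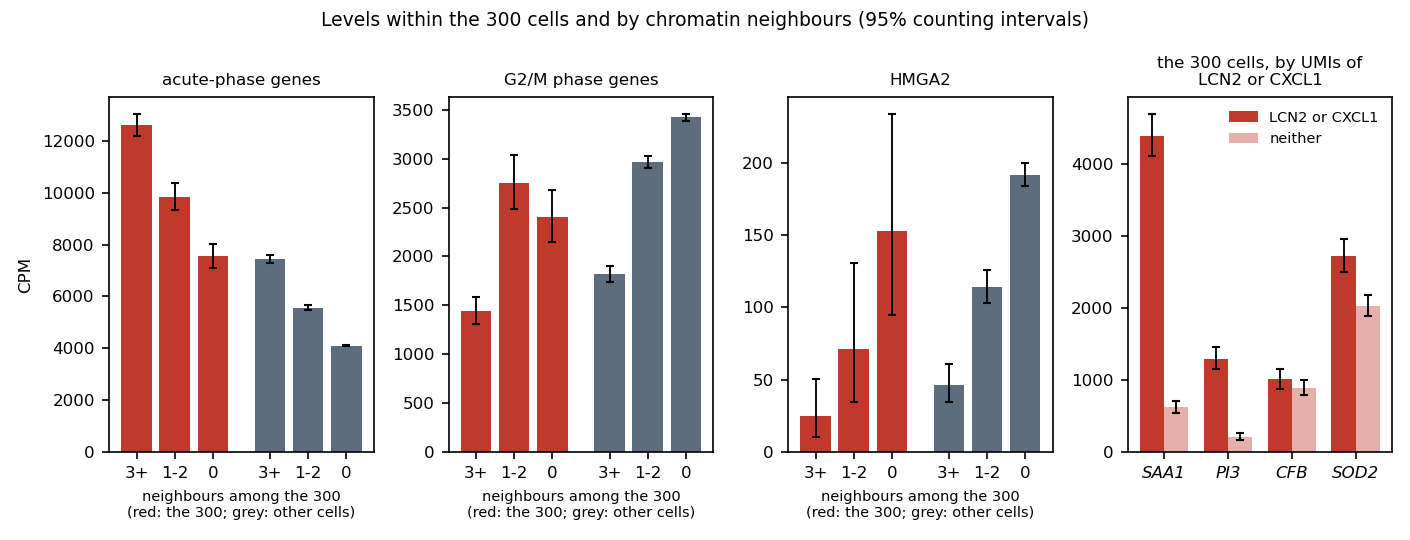
Summed CPM with 95% counting intervals: acute-phase genes, G2/M genes and HMGA2 by the number of chromatin neighbours among the 300 cells, for the 300 cells (red) and other cells (grey), and 4 genes in members with or without LCN2 or CXCL1. Acute-phase genes are highest and HMGA2 lowest with 3 or more such neighbours, in both groups, and SAA1 stands at 4391 CPM with LCN2 or CXCL1 and 621 CPM without.

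Single peaks gave little at this depth. Of 60112 peaks with at least 200 counts, 1611 (2.68%) were higher and 1407 (2.34%) lower in the members. By counting error, the intervals alone leave up to 2.5% of unchanged peaks on each side. The 1.5-fold limit can lower that share, by an amount that was not measured. TMM scaling gave 750 higher and 3144 lower peaks. For the 14502 gene starts with peaks within 1 kb, 2.08% were higher and 2.02% lower. Genes with higher RNA in the members had slightly more open starts: 58.5% of 188 such genes had a ratio above 1, against 49.1% of all 7941 genes compared in both readouts, and 45.7% of the 460 with lower RNA. At the starts of the leading RNA genes, PI3 had 31.3 counts per 1000000 in the members and 23.8 in the other cells (ratio 1.31, 0.851 to 1.95), SLPI 41.5 in the members and 27.9 in the other cells (1.49, 1.02 to 2.10) and CFB 40.3 in the members and 40.4 in the other cells (0.996, 0.684 to 1.41). Higher in both RNA and chromatin within 1 kb were 4 of the 188 genes (2.13%), near the 1.93% of all 7941 with higher chromatin, so the overlap is no result about the members. They were CLSTN2 (chromatin ratio 2.12), SGPP2 (2.08), DSC3 (1.88) and PEX2 (1.55).

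Lower in both readouts were 11 of the 460 genes (2.39%), near the 2.08% of all 7941 with lower chromatin, INHBA among them. Chromatin within 1 kb of its start gave 21 counts in the members and 1881 in the other cells, a ratio of 0.314 (0.153 to 0.571), beside the RNA ratio of 0.253. Within 50 kb of the start the ratio was 0.585 (0.412 to 0.808). LINC01111 had 6 counts in the members and 620 in the other cells at its start (0.272, 0.0558 to 0.802). CAV1, which encodes caveolin 1, was lower in both as well, at 0.652 for chromatin and 0.584 for RNA. The INHBA promoter is shown because both readouts differed there; capitals mark its 2 kappaB matches, so such a match also stood in a gene that was low in the members. It lies at chr7:41703041-41703340 (- strand) in GRCh38.p14.
INHBA: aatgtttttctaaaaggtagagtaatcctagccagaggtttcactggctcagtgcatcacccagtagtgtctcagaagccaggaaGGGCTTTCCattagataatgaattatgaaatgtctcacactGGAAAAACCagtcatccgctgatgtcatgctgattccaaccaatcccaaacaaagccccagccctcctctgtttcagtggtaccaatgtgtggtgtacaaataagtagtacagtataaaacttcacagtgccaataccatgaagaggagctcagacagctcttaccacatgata

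Whole chromosomes took unequal shares of the counts. Chromosome 13 held 1.94% of the members' peak counts and 2.11% of the other cells' (ratio 0.922, 0.908 to 0.936), and 1.15% of the members' UMIs and 1.29% of the other cells' (0.890, 0.868 to 0.913). Chromosomes 1, 2, 7, 8, 9 and 22 were also lower in both readouts, with peak ratios of 0.944, 0.941, 0.926, 0.983, 0.936 and 0.930. Chromosomes 3, 6, 11, 20, 21 and X were higher in both, with peak ratios of 1.08, 1.02, 1.03, 1.05, 1.07 and 1.09. These are shares of 1 total, so a scaling that multiplies all chromosomes alike moves their side of 1 and leaves their order. Line and treatment cannot be told apart in this pool, and their part in these shares was not tested. Abundant single genes also weigh on UMI shares. Chromosome 6 held 4.77% of the members' UMIs and 4.61% of the other cells'. It carries SOD2 (2279 CPM in members, 1111 CPM in other cells) and CFB (932 CPM in members, 340 CPM in other cells). Chromosome 20 held 2.27% of the members' UMIs and 2.02% of the other cells'. It carries SLPI (5058 CPM in members, 2796 CPM in other cells) and PI3 (605 CPM in members, 118 CPM in other cells). Chromosome 11 carries FTH1, SAA1 and SAA2, which were also higher in the members. How far such genes set the UMI shares of whole chromosomes was not tested. The share of peak counts near gene starts was alike, at 44.4% in the members and 44.3% in the other cells.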

How the data were processed

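The deposited matrix holds raw counts per feature and barcode, UMIs for 36601 genes and transposition counts for 215590 peaks, made by the authors with Cell Ranger ARC 2.0.0 per the file headers. The submitters' processing notes also name ArchR 1.0.3, MACS2 and GRCh38.p10, with no roles. Barcodes had not been filtered to cells, so cells were taken as those reaching 1000 UMIs and 1000 peak counts with no more than 20% of UMIs mitochondrial. Members were ranked by the share of their UMIs in the 5 genes, ties going to deeper cells. The members and gene lists were chosen with earlier results of these data known.

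Counts were summed over members and over other cells. Ratios have exact conditional binomial 95% intervals (Python 3.11.15, scipy 1.17.1), without adjustment for the number compared. As 87.9% of peak entries were even, 2 peak counts were taken as 1 event. No test was made, since there is 1 pooled sample. Named genes are the 20 higher (at least 20 member UMIs) and 15 lower with the most extreme bound. From each list, up to 4 genes past the fold and the 2 most abundant were planned. More genes are given for some lists, among them the NF-kB list, and that rule did not choose those. Chromatin neighbours used peaks in at least 20 cells, weighted by term and inverse document frequency, 30 components (29 kept after dropping those correlated over 0.75 with depth) and 15 cosine neighbours. Alternatives that left cells out kept these neighbours and dropped links to the cells left out. Scrublet in scanpy 1.11.5 marked 0 cells and has not worked, so doublets remain. Gene starts with a range over 10 kb were left out. A looser kappaB motif, tried first, was in 58.0% of all promoters. The comparison was also run on simulated counts that had counting error only and no spread between cells. That run therefore says nothing about genes spread unevenly over cells.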

Additional observations from a re-analysis of the deposited data

Results flagged for a closer look

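Barcodes outside the cell filter also reached the members' lowest share of the 5 genes. Of 4836 barcodes with enough UMIs and too few peak counts, 141 did (2.92%, exact 95% interval 2.46 to 3.43), and of 2217 over the mitochondrial limit, 103 did (4.65%, 3.81 to 5.61). By the choice itself, 300 of the 8913 cells inside the filter reach it. These barcodes are given because they enter no comparison.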

How the results depend on the processing

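Acute-phase, NF-kB, S phase, G2/M and interferon medians kept their direction in the alternatives run, with 1 exception. S phase and G2/M medians turned sign when 300 cells were chosen under a limit of at most 10% mitochondrial UMIs. That limit left 1592 cells, and its top 300 included 48 cells with no UMI of the 5 genes and shared 38 with the members. There 46 genes and 74 peaks were higher, 52 genes and 73 peaks lower, and the neighbour excess was 1.08. The medians were 0.21 (acute-phase), 0.14 (NF-kB), 0.02 (S phase), 0.16 (G2/M), 0.01 (YAP/TEAD), 0.00 (ribosomal) and 0.00 (genes of other chromatin clusters). Ratios crossed 1 for SEL1L3 (0.985), CSMD3 (0.968), RARRES1 (0.982), MAF (0.85), INHBA (1.66), NSD2 (1.16), AC089983.1 (1.0), ADAMTS6 (1.14), AC004704.1 (1.41), the starts of CYP17A1 (0.853) and SLPI (0.565), and chromosomes 20 (0.993) and 22 (1.01).

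Added after seeing the data, the same limit with the members' share of cells (54) gave 80 genes and 76 peaks higher. It gave 70 genes and 39 peaks lower and a neighbour excess of 0.834. Medians were 0.89 (acute-phase), 0.54 (NF-kB), -0.82 (G2/M), -0.18 (S phase) and -0.02 (interferon). Ratios crossed 1 for CXCL8 (0.824), SAMD3 (1.0), the starts of CLSTN2 (0), CYP17A1 (0.625) and SLPI (0.685), and chromosomes 20 (0.973) and 21 (0.983). At 2000 UMIs and 2000 peak counts, 679 peaks were higher and 802 lower with a neighbour excess of 2.56. With the members' share of cells, also added later, these were 570, 600 and 7.65, the G2/M median was -0.89 and the SLPI start 0.923.

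The neighbour excess was 5.93 with 150 members, 2.42 with 600, and 4.04, 4.67, 2.64 and 3.38 without LCN2, CYP17A1, SFTPD and ISM2. The G2/M median was -0.92 with 150 members, which gave 511 lower peaks, and -0.45 with 600. Without SFTPD, 346 genes and 830 peaks were lower and SELENBP1 was at 0.98. Requiring 2 of the 5 genes put the ribosomal median at -0.02. TMM scaling gave 750 higher and 3144 lower peaks. It multiplies all chromosome ratios by 1 factor, which by construction put chromosomes 3, 20, 21 and X at 0.951, 0.921, 0.939 and 0.958 and says nothing about these chromosomes. Median-of-ratios scaling gave 452 higher and 356 lower genes. Peak minimums of 60 and 600 counts gave 3556 and 441 higher peaks, and 600 counts also gave 621 lower ones. The cause of these moves was not tested. Of 661 values for the 35 named genes, 531 stayed inside the main interval. Depth limits what single cells show, since 1 UMI in a member of median depth is 604 CPM. No paired analysis was possible because all cells form 1 pool without replicates.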
